A study of Mus musculus with 8 samples.

Results

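The subunits of oxidative phosphorylation were examined in bulk RNA sequencing of mesenchymal stem and progenitor cells (MSPCs), the stromal cells of bone marrow that make CXCL12 and stem cell factor. A gene was a member if its Ensembl identifier belonged to a protein-coding mouse gene whose symbol begins with Nduf, Uqcr, Atp5, Cox4 to Cox8, Sdha to Sdhd, mt-Nd, mt-Co, mt-Atp or mt-Cytb, with the assembly factors Ndufaf and Sdhaf left out. This gave 98 of the 52636 genes in the table, 85 nuclear-encoded and 13 encoded by mitochondrial DNA. Cells came from 4 control mice with the genotype Flk2-cre+ Cxcr4fl/+ (CTR; CTL in the labels) and 4 conditional knockout littermates with the genotype Flk2-cre+ Cxcr4fl/fl (cKO), all C57BL/6 and given as 6 weeks old by the labels, while the methods give an older range. Every mouse therefore carried the Cre transgene and at least 1 floxed allele, and the sort on SCF-GFP means that all also carried the reporter. This GFP allele lies in Kitl, the gene of stem cell factor. The paper reports that cKO mice heterozygous for it had stem cell numbers, and stem cell factor on niche cells, back at normal levels. MSPCs were sorted from 1 mouse per library as PDGFRα+ SCF-GFP+ cells without the blood and endothelial markers CD45, Ter119, CD31 and CD144. Flk2-cre acts in multipotent progenitors and their blood cell progeny and not in MSPCs, so the comparison asks whether MSPCs differ when the progenitors around them lack CXCR4.

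Oxidative phosphorylation is carried out in the inner mitochondrial membrane. Complex I (NADH dehydrogenase) and complex II (succinate dehydrogenase) feed electrons to ubiquinone, complex III passes them to cytochrome c, complex IV (cytochrome c oxidase) passes them to oxygen, and complex V (ATP synthase) uses the resulting proton gradient to make ATP. All complexes but complex II are built from both genomes, so that nuclear and mitochondrial transcripts have to be supplied together.

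The libraries held 31047344 to 38216877 counts. The 6 MSPC markers were detected in every library and summed to between 47531 and 60507 CPM, the counts scaled to library size. Cxcr4, the floxed gene, ranged over 4 to 19 counts in the CTR group and over 0 to 12 in the cKO group, and as the Cre is not active in these cells it does not check the genotype labels. Markers of brown fat were at 0 in all 8 libraries and 6 of 8 skeletal muscle markers were at 0. The titles of the libraries carry a number whose meaning the labels do not give, which runs from 26 to 32 in CTR2, CTR4, cKO2 and cKO4 and from 67 to 86 in CTR1, CTR3, cKO1 and cKO3. Both genotypes are split evenly over these ranges. Fewer cells of a type and less RNA per cell cannot be told apart in bulk samples.

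Of the 98 members, 93 had a count above 0 in all 8 libraries and were tested, 80 nuclear-encoded and all 13 mitochondrially encoded. The 5 others were nuclear-encoded subunits of complex IV. Cox6a2, Cox7b2 and Cox8b had no count in any library, which with 3 counts as the limit of detection leaves them below the floor, Cox8c had 5 counts in CTR1 and none elsewhere, and Cox7a1 was at 0 in CTR2 alone. Cox6a2, Cox7a1 and Cox8b are forms typical of heart and skeletal muscle. Together the nuclear members took up 0.582% to 0.739% of the counts of a library and the mitochondrially encoded members 0.340% to 0.399%, in a polyA-selected preparation. The second share was 0.321% to 0.381% without members that have a near-identical annotated copy over most of the transcript, described below.

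Levels were compared between genes as CPM per kb of the principal transcript. The highest of all was mt-Cytb, the mitochondrially encoded cytochrome b of complex III, at 1178 ± 69.9 CPM per kb (SD, n = 8). Next came mt-Co1, the catalytic subunit of complex IV, at 616 ± 47.7 and mt-Nd1, a membrane subunit of complex I, at 577 ± 38.6 CPM per kb. Among nuclear members Atp5b, the catalytic beta subunit of complex V, was highest at 332 ± 34.1 CPM per kb. It was followed by Atp5g3, which encodes the c subunit of the proton-driven ring, at 277 ± 28.8 CPM per kb. In each of the other complexes the highest nuclear member was Cox6a1 of complex IV at 247 ± 26.9, Ndufb9 of complex I at 169 ± 15.4, Uqcrb of complex III at 161 ± 17.9 and Sdhd of complex II at 90.4 ± 5.57 CPM per kb. In complex II the levels of Sdha at 89.3 ± 5.13, Sdhb at 88.3 ± 18.5 and Sdhd differed by less than their spread between libraries, and Sdhc stood lower at 34.3 ± 4.05 CPM per kb. This order depends on the length, as Sdhc with 3171 bases had 109 ± 12.9 CPM and Sdhd with 1231 bases 111 ± 6.85 CPM. With the union of all annotated exons as the length, a choice added after seeing the data, the levels of the 93 members correlated with those above at a Spearman rho of 0.86 over genes. Sdhd was then again the highest of complex II, Sdhc the lowest and Sdhb at 45.04 CPM per kb, while the highest nuclear member was another one in each of the other complexes.

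**Figure D1:**
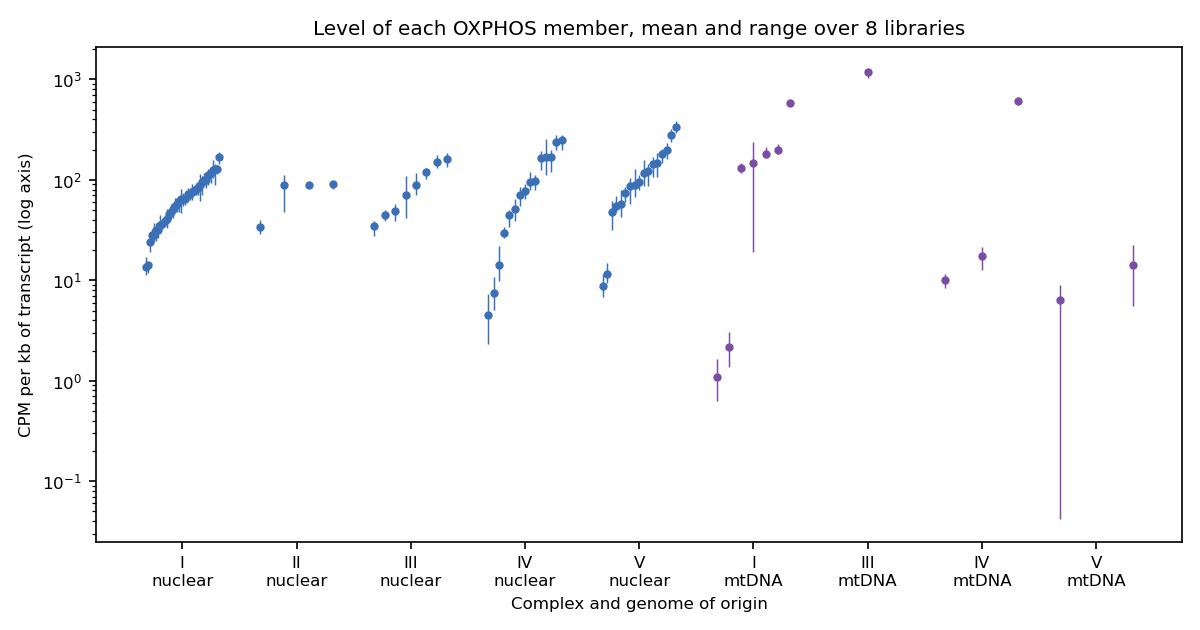
Level of each of the 93 tested members in CPM per kb of principal transcript (log axis), by complex and genome of origin, with points for the mean over 8 libraries and bars from the lowest to the highest library. Nuclear members spanned 4.47 to 332 CPM per kb, and mitochondrially encoded members spanned 1.10 to 1178.

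Transcripts of the mitochondrial genome come from shared precursors, yet the 13 mitochondrially encoded members ranged from 1.10 to 1178 CPM per kb. mt-Co2 reached only 10.04 CPM per kb, and mt-Co1 was 62.0 ± 8.23 times higher per kb than mt-Co2 and 36.02 ± 5.99 times higher than mt-Co3 (SD, n = 8). Near-identical annotated copies exist for 5 of the 6 lowest per kb, with mt-Atp8 as the exception. Only annotated transcripts were searched, so a copy of mt-Atp8 without annotation would have been missed. In all, 6 of the 13 mitochondrially encoded members had a pseudogene on chromosome 1 that matched at 98% identity or more over most of the transcript. The sixth was mt-Nd4. mt-Co1 matched the pseudogene Gm29216 on chromosome 1 over 483 of its 1545 bases with 1 mismatch. Of the nuclear members 6 had such a copy over most of the transcript (Atp5g2, Atp5h, Atp5l, Cox7c, Ndufs3 and Uqcrb), and no pseudogene copy of a nuclear member had more than 165 counts. Reads of both places cannot be told apart where the sequence is the same, and the levels of members with such a copy are uncertain for that reason. Another limit is that 19 of the 85 nuclear members shared transcript sequence with a different gene at the same locus. Its effect on their levels was not tested. Windows of 69 bases, the length of a read after trimming, are shown for 3 mitochondrially encoded members and their copies, with bases that differ in capitals. They are bases 1 to 69 of mt-Co2 and mt-Nd3 and bases 1063 to 1131 of mt-Co1, from the transcripts of GENCODE M21 on GRCm38.
mt-Co2 (chrM:7013-7696, +): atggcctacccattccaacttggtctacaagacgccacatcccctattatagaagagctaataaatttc
Gm28661 (chr1:24614885-24615565, -): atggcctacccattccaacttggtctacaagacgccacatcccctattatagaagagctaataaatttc
mt-Nd3 (chrM:9459-9806, +): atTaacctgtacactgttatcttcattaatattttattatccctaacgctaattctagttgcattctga
Gm28438 (chr1:24612775-24613119, -): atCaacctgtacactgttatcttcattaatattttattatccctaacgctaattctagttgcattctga
mt-Co1 (chrM:5328-6872, +): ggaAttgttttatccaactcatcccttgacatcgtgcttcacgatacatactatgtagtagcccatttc
Gm29216 (chr1:24615706-24616197, -): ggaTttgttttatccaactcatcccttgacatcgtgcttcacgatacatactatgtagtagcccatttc

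The copy of mt-Co2, Gm28661, was identical over 681 of 684 bases, and a read that lies within these bases cannot be assigned to one of them. Gm28661 had 149 to 208 counts per library and took 40.9% to 45.5% of the summed CPM of the pair. mt-Co3 and its copy Gm28437 were identical over 783 bases, and the copy took 47.7% to 52.2% of the sum. With the copy added, the CTR mean of mt-Co2 was 12.3 ± 1.63 CPM and the cKO mean 11.7 ± 0.875 CPM, and for mt-Co3 these were 27.6 ± 1.55 and 26.7 ± 4.88 CPM (SD, n = 4 each). Both sums stayed under mt-Co1 in every library. A sum holds only reads that were assigned to a gene, and whether reads matching both places were counted is not given. The comparison therefore cannot decide whether mt-Co2 and mt-Co3 were truly lower than mt-Co1.

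mt-Cytb had 1322, 1435, 1334 and 1320 CPM in CTR and 1350, 1187, 1421 and 1411 CPM in cKO, with cKO2 lowest and the groups overlapping. mt-Nd1 had 522, 596, 588 and 536 CPM in CTR and 516, 519, 537 and 602 CPM in cKO, and mt-Nd2, another membrane subunit of complex I, had 200, 225, 199 and 186 CPM in CTR and 219, 192, 201 and 236 CPM in cKO. Both overlapped, with log2 fold changes, cKO over CTR, of -0.04 and 0.07. mt-Nd5, a proton-pumping subunit of complex I, had 299, 385, 318 and 306 CPM in CTR and 330, 337, 325 and 358 CPM in cKO, with CTR2 highest. mt-Nd6, the member encoded on the opposite strand, had 65.03, 75.8, 68.98 and 63.2 CPM in CTR and 66.1, 64.7, 60.4 and 76.4 CPM in cKO, and the groups overlapped. Of the members with copies, mt-Co2, mt-Co3, mt-Nd3 and mt-Nd4l were low in all libraries. mt-Co2 had 6.96, 7.88, 7.58 and 5.67 CPM in CTR and 6.03, 6.98, 7.47 and 6.37 CPM in cKO, mt-Co3 had 14.8, 13.9, 15.03 and 12.3 CPM in CTR and 13.5, 9.98, 16.7 and 13.1 CPM in cKO and both overlapped between genotypes. mt-Nd3 had 1.07, 0.705, 0.839 and 0.482 CPM in CTR and 0.551, 0.884, 0.584 and 0.988 CPM in cKO, and mt-Nd4l had 0.485, 0.368, 0.186 and 0.214 CPM in CTR and 0.459, 0.285, 0.215 and 0.390 CPM in cKO. At 6 to 38 counts a library, these small complex I subunits overlapped as well and were near the limit of what the depth resolves.

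mt-Nd4, a membrane subunit of complex I, had the largest coefficient of variation over the 8 libraries, at 63.8%. mt-Atp6 had the widest fold range, which rests on a single count in cKO2. The counts of mt-Nd4 were 9136, 864, 3185 and 10198 in CTR1 to CTR4 and 900, 9243, 10149 and 12656 in cKO1 to cKO4. One library of each genotype was near 900 counts with CTR3 in between, and these lowest ones were from different title number ranges. The neighbouring complex I gene mt-Nd5 stayed between 299 and 385 CPM. The copy of mt-Nd4, Gm28439, is identical to bases 1 to 876 of 1378 and had only 75 to 139 counts. The sum of this pair spanned 28.9 to 333 CPM, as wide as mt-Nd4 alone. mt-Atp6, the subunit of complex V that forms the proton channel with the c ring, had 5.79, 4.72, 5.19 and 3.67 CPM in CTR and 4.78, 0.0285, 6.12 and 4.24 CPM in cKO, the low value being a single count in cKO2. Its copy Gm10925, identical over 678 bases, had 360 counts in cKO2 and 392 to 782 in the others. Summed, mt-Atp6 and Gm10925 spanned 10.3 to 30.2 CPM, of which the copy took 72.2% to 99.7%. The level of mt-Atp6 alone is therefore uncertain.

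**Figure D2:**
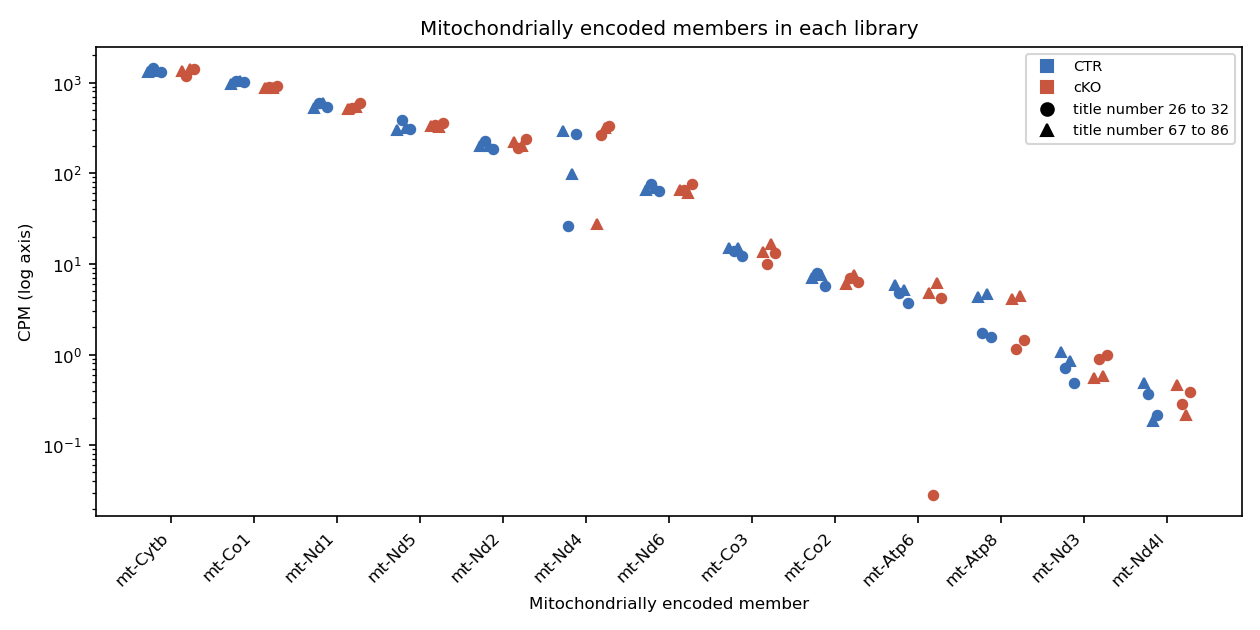
CPM (log axis) of the 13 mitochondrially encoded members in each library, blue for CTR and red for cKO, circles for title numbers 26 to 32 and triangles for 67 to 86. mt-Co1 lies lower in the 4 cKO libraries, and mt-Nd4 falls into high and low libraries of both genotypes. mt-Atp6 is at a single count in cKO2, and mt-Atp8 separates by title number range.

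Between genotypes, no member passed the threshold. With edgeR's quasi-likelihood test 0 of 93 members and 0 of 14598 genes had an adjusted p under 0.05 (0.0% called). At an unadjusted p under 0.05 there was 1 member of 93, against 646 genes, which is 4.43% of all genes tested. DESeq2's Wald test called 23 genes and 0 members. The median log2 fold change, cKO over CTR, was 0.00 for nuclear members, with 41 higher and 39 lower, and -0.03 for mitochondrially encoded members, with 4 higher and 9 lower. Over all genes tested the median was 0.00. The median size of the change was 0.06 in members and 0.14 in all genes on the log2 scale. The 95% interval of the log2 fold change lay within 0.5 of 0 for 70 members and within 1 of 0 for 88. The 5 others were mt-Nd4, mt-Atp6, mt-Atp8, Cox6b2 and Ndufa4l2, whose intervals reached past a 2-fold difference.

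mt-Co1 was the member with the smallest p and the one whose groups did not overlap. It had 972, 1042, 1031 and 1017 CPM in CTR and 870, 898, 860 and 923 CPM in cKO libraries, so each cKO library was under each CTR library. The means were 1016 ± 30.8 and 888 ± 28.4 CPM (SD, n = 4 each) and the log2 fold change was -0.19 (SE 0.08, adjusted p = 0.999 by edgeR). An exact permutation test gave p = 0.0286, two-sided, the smallest this design allows, and it was the smallest of 93 members examined. The difference was -0.18 within title numbers 26 to 32 and -0.21 within 67 to 86. Over all genes tested, 383, or 2.62%, had groups that did not overlap, and 1 of 93 members is below that share. mt-Cytb, whose transcript is also abundant, was at 1353 ± 55.3 in CTR and 1342 ± 109 CPM in cKO. Summed CPM of 12 hematopoietic markers also did not overlap, with 143 to 197 for CTR against 84.4 to 116 for cKO, of which Kit made up 130 and 46.4 CPM on average and Cd3e was at 0. Without Kit the sum of the 11 others overlapped and was numerically higher in cKO, at 57.6 ± 16.9 CPM against 37.8 ± 17.9 CPM in CTR (SD, n = 4 each). Summed CPM of 10 handling response genes such as Fos ran from 998 to 1077 for CTR and from 632 to 922 for cKO. Their part in the mt-Co1 difference was not tested.

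**Figure D3:**
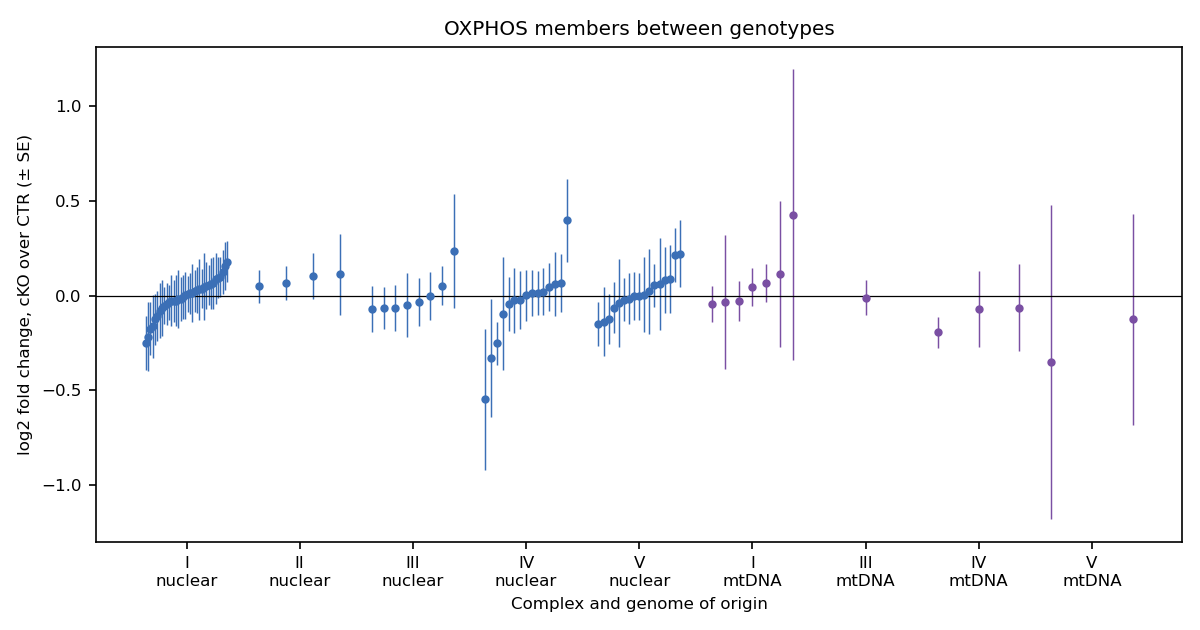
log2 fold change of each tested member, cKO over CTR, with bars of ± 1 SE, by complex and genome of origin. Most nuclear members lie near 0, and the widest bars belong to mt-Atp6, mt-Nd4 and mt-Atp8.

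In complex I, 19 of 36 nuclear members were higher and 17 lower, with a median log2 fold change of 0.00 and none at an unadjusted p under 0.05. Ndufab1, the mitochondrial acyl carrier protein, had the smallest p of the complex. Its CPM was 59.5, 54.9, 52.2 and 38.9 in CTR and 48.6, 41.9, 41.1 and 41.1 in cKO, which overlapped through CTR4. The log2 fold change was -0.25 (95% interval -0.57 to 0.07). Ndufb9, the highest per length, had 113, 109, 124 and 113 CPM in CTR and 127, 102, 129 and 132 CPM in cKO, where cKO2 was under every CTR library and the rest were above.

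The 4 subunits of complex II were all numerically higher in cKO, with log2 fold changes of 0.05 to 0.11, and none passed the test. Sdhc, a membrane anchor, had the smallest p, with 102, 106, 120 and 91.8 CPM in CTR and 125, 95.4, 124 and 106 CPM in cKO. The groups overlapped and the log2 fold change was 0.10 (95% interval -0.17 to 0.37). Sdhd, the other anchor, had a log2 fold change of 0.07. It had 101, 112, 119 and 104 CPM in CTR and 118, 107, 113 and 117 CPM in cKO. Sdhb, the iron-sulfur subunit, had 54.4 CPM in CTR1 and 93.5 to 127 CPM elsewhere.

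In complex III, 2 of 8 nuclear members were higher and 6 lower, with a median of -0.04. Uqcrh, the hinge subunit, had the smallest p and was also the most variable, at 22.9, 45.9, 47.2 and 24.5 CPM in CTR and 32.2, 45.2, 59.8 and 28.2 CPM in cKO. Its log2 fold change of 0.24 had a 95% interval of -0.44 to 0.91. Uqcrb, the highest per length, had 97.2, 84.4, 97.9 and 74.2 CPM in CTR and 92.9, 72.4, 84.4 and 87.5 CPM in cKO, with the groups overlapping throughout.

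In complex V, 8 of 17 nuclear members were higher and 9 lower, with a median of 0.00. Atp5j, coupling factor 6 of the stalk, had the smallest p, at 97.6, 70.1, 99.2 and 98.3 CPM in CTR and 109, 85.8, 115 and 114 CPM in cKO. cKO2 was the library that overlapped with CTR, and the log2 fold change was 0.21 (95% interval -0.10 to 0.53). Atp5b had 667, 586, 730 and 582 CPM in CTR and 696, 556, 687 and 589 CPM in cKO, a log2 fold change of -0.02. Atp5s, which matches the prefix and is a coupling factor outside the core enzyme, had a log2 fold change of 0.00.

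Complex IV had the broadest range of the nuclear parts, with log2 fold changes of -0.55 to 0.40, and 8 of 15 tested members higher. Cox5a, which binds to the matrix side of the enzyme, had the smallest p. It had 64.4, 62.6, 76.6 and 60.4 CPM in CTR and 55.0, 51.5, 51.6 and 63.5 CPM in cKO. Only cKO4 reached the CTR libraries, and the log2 fold change was -0.25 (95% interval -0.51 to 0.00, exact permutation p = 0.0857). Ndufa4, once assigned to complex I and now counted with complex IV, had 82.8, 75.5, 99.1 and 96.9 CPM in CTR and 107, 68.1, 136 and 155 CPM in cKO. The cKO libraries spread far more widely than the CTR libraries, and its log2 fold change was 0.40 (95% interval -0.10 to 0.89).

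Complex IV is the complex with most alternative forms of its subunits, and the ubiquitous form led each pair. Cox4i1 stood at 169 ± 28.9 and Cox4i2, a form linked to low oxygen, at 14.1 CPM per kb. Cox4i2 made up 8.24% ± 3.70 of both in CTR and 7.42% ± 1.17 in cKO (SD, n = 4 each), less than the spread between libraries. Ndufa4l2, another form linked to low oxygen, had 3.69, 6.81, 5.12 and 4.23 CPM in CTR and 2.21, 4.45, 4.77 and 2.16 CPM in cKO. Its share of Ndufa4 and Ndufa4l2 was 3.61% ± 1.32 in CTR and 2.14% ± 1.42 in cKO, and its log2 fold change was -0.55 (95% interval -1.38 to 0.28). Cox6b2, a form best known from testis, was 5.09% ± 1.71 of Cox6b1 and Cox6b2 in CTR and 3.79% ± 0.708 in cKO. Cox7a1 had 11, 0, 24 and 14 counts in CTR and 30, 27, 26 and 11 in cKO, and made up at most 2.41% of Cox7a1 and Cox7a2. Cox7a2l, which takes part in joining complexes III and IV and is no core subunit, had a log2 fold change of 0.05. Cox6a1, Cox6b1, Cox7a2 and Cox8a had log2 fold changes of 0.01, 0.07, 0.01 and 0.00. Of the 3 genes for the c subunit of complex V, Atp5g3 made up 80.5% ± 1.24, Atp5g2 16.1% ± 1.34 and Atp5g1 3.37% ± 0.615 of the level per kb (SD, n = 8). The order of the last pair rests on a principal transcript of 4715 bases for Atp5g1 against 731 for Atp5g2. Atp5g2 was also identical to the pseudogene Gm10175 over 645 bases, and Atp5g1 matched Gm10039 over 411 bases with 1 mismatch. The effect of these copies on the shares was not tested. In CPM, Atp5g1 made up 18.4% ± 2.87 and Atp5g2 13.8% ± 1.37, and Atp5g1 was the higher in all libraries but CTR3. All of these shares overlapped between the genotypes.

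The values by library show the same overlap. Cox4i1 had 140, 109, 145 and 111 CPM in CTR and 136, 91.8, 149 and 150 CPM in cKO, and Cox4i2 had 11.8, 16.2, 7.17 and 7.44 CPM in CTR and 9.62, 8.30, 9.22 and 12.7 CPM in cKO. cKO2 was lowest for Cox4i1 and CTR2 highest for Cox4i2. Cox6a1 had 143, 137, 158 and 124 CPM in CTR and 155, 114, 148 and 151 CPM in cKO. Cox6b1 had 104, 83.7, 119 and 91.9 CPM in CTR and 117, 77.7, 107 and 115 CPM in cKO, and Cox6b2 had 5.27, 6.28, 3.73 and 4.31 CPM in CTR and 5.51, 2.96, 3.63 and 3.49 CPM in cKO. cKO2 was the lowest library for each of these 3 genes. Cox7a2 had 64.2, 59.9, 68.5 and 61.5 CPM in CTR and 65.9, 52.3, 64.6 and 73.6 CPM in cKO, and Cox7a2l had 32.1, 31.5, 31.8 and 28.5 CPM in CTR and 28.5, 28.5, 34.6 and 36.3 CPM in cKO. Cox8a, the ubiquitous form of the smallest subunit, had 144, 114, 155 and 113 CPM in CTR and 143, 109, 135 and 139 CPM in cKO, with cKO2 lowest once more. Among the c subunit genes, Atp5g1 had 67.4, 44.4, 46.3 and 53.5 CPM in CTR and 45.4, 47.6, 61.8 and 70.01 CPM in cKO. Atp5g2 had 41.96, 38.4, 50.5 and 35.1 CPM in CTR and 42.97, 36.6, 39.2 and 40.1 CPM in cKO, and Atp5g3 had 221, 191, 204 and 171 CPM in CTR and 230, 174, 209 and 204 CPM in cKO. Their groups overlapped and their log2 fold changes were 0.09, -0.06 and 0.05.

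The wider pathway was read from lists of assembly factors, carriers, regulators, mitochondrial ribosomal proteins and enzymes of the tricarboxylic acid cycle. In none of the 6 lists did a gene pass the threshold in either direction by edgeR. Of 46 assembly factors 3 (6.52%) had an unadjusted p under 0.05, near the 4.43% of all genes, and their values are given as a description. Ndufaf4, an assembly factor of complex I, had 20.1 ± 4.83 CPM in CTR against 12.1 ± 4.15 CPM in cKO (log2 fold change -0.74). Lrpprc, which stabilizes mitochondrial transcripts, was at 28.6 ± 5.86 and 20.6 ± 2.43 CPM (-0.48), and Sdhaf1, an assembly factor of complex II, at 14.5 ± 1.25 and 19.0 ± 2.39 CPM (0.39). Their exact permutation p-values were 0.0857, 0.0857 and 0.0571. The median log2 fold change was -0.03 over the assembly factors, 0.01 over 78 mitochondrial ribosomal proteins, -0.04 over 13 enzymes of the cycle, 0.00 over 15 electron carriers 0.09 over 17 tested regulators and -0.12 over the 3 tested of 5 uncoupling proteins and nucleotide carriers. Ppargc1a, the coactivator of mitochondrial biogenesis, was at 0 to 27 counts and was not tested, while Tfam, which drives mitochondrial transcription, was at 35.7 ± 5.83 CPM in CTR and 34.7 ± 4.30 CPM in cKO. Ucp1, the uncoupling protein of brown fat, was at 0 in all libraries.

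Nuclear members stood higher in 1 of the title number ranges, although none was called by edgeR. With genotype in the fit, 72 of 80 nuclear members were numerically higher in libraries numbered 67 to 86 than in those numbered 26 to 32, and the median log2 difference was 0.18 against -0.01 over all genes tested. Of 93 members, 15 had an unadjusted p under 0.05 and 12 did not overlap between the ranges, against 11.6% and 6.87% of all genes tested. Of all genes 2 (0.0137%) were called. The summed nuclear level was 7001 to 7471 CPM in the 4 libraries numbered 67 to 86, and 6503, 6355, 5802 and 7157 CPM in CTR2, CTR4, cKO2 and cKO4. cKO4 thus reached the higher range and cKO2 was lowest. Without cKO4 the count at an unadjusted p under 0.05 was 32 of 93 members, or 34.4%, against 12.5% of all genes. Without cKO2 it was 4, or 4.30%, against 8.61% of all genes, so the members were then below the share of all genes. The ratio of mitochondrially encoded to nuclear CPM was 0.501 ± 0.025 in libraries numbered 67 to 86 and 0.582 ± 0.020 in those numbered 26 to 32 (SD, n = 4 each). This ratio includes mitochondrially encoded members with a near-identical copy, whose levels are uncertain. Those without such a copy over most of the transcript summed to 3423 ± 83.2 CPM and 3499 ± 242 CPM, in the same order.

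mt-Atp8, a small subunit of complex V, had the largest difference between the ranges. It had 4.30, 4.63, 4.13 and 4.46 CPM in CTR1, CTR3, cKO1 and cKO3 and 1.72, 1.55, 1.14 and 1.46 CPM in CTR2, CTR4, cKO2 and cKO4, with no overlap. The log2 difference was 1.59 (SE 0.28, adjusted p = 0.119 by edgeR). DESeq2's Wald test called mt-Atp8 and Atp5b, 2 of 93 members, against 380 of all 14598 genes tested. Gm10925, the copy of the neighbouring gene mt-Atp6, had 563 to 782 counts in the libraries numbered 67 to 86 and 360 to 448 in the others. No annotated copy of mt-Atp8 was found, and copies without annotation were not searched for. The copies of mt-Atp6 and mt-Co2 lie near each other on chromosome 1, at bases 24613974 to 24614651 and 24614885 to 24615565. The stretch between them was not searched for mt-Atp8, so the level of mt-Atp8 is uncertain as well. Atp5b had a mean of 695 ± 26.2 CPM against 578 ± 15.2 CPM, again with no overlap (log2 difference 0.26, adjusted p = 0.240). Osteolineage markers, summed over 4 genes, were 8097 to 10784 CPM in libraries numbered 67 to 86 and 11246 to 14140 CPM in the others. Ibsp made up most of this sum, the sum of the 3 others overlapped between the ranges, and Sp7 and Bglap were numerically higher in libraries numbered 67 to 86 (log2 differences 0.43 and 0.96). MSPC markers summed to 53802 to 60507 CPM in libraries numbered 67 to 86 and 47531 to 53673 CPM in the others. Cxcl12 made up most of this sum. Cxcl12 and Adipoq were numerically higher in libraries numbered 67 to 86 (log2 differences 0.20 and 0.45). Kitl, Ebf3, Pdgfra and Lepr were numerically lower there (-0.36, -0.32, -0.19 and -0.09). Pericyte and smooth muscle markers averaged 11.8 CPM against 36.1 CPM, with Rgs5 at a log2 difference of -1.49 (adjusted p = 0.112 by edgeR), and erythroid markers 183 CPM against 114 CPM, and both sums overlapped. The part of these markers in the differences was not tested. No member passed the threshold for an interaction of genotype and range (0.0% of all genes called). By edgeR, mt-Nd3 alone had an unadjusted p under 0.05, 1 of 93 members against 502 of 14598 genes. It is also a low member with a near-identical copy.

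**Figure D4:**
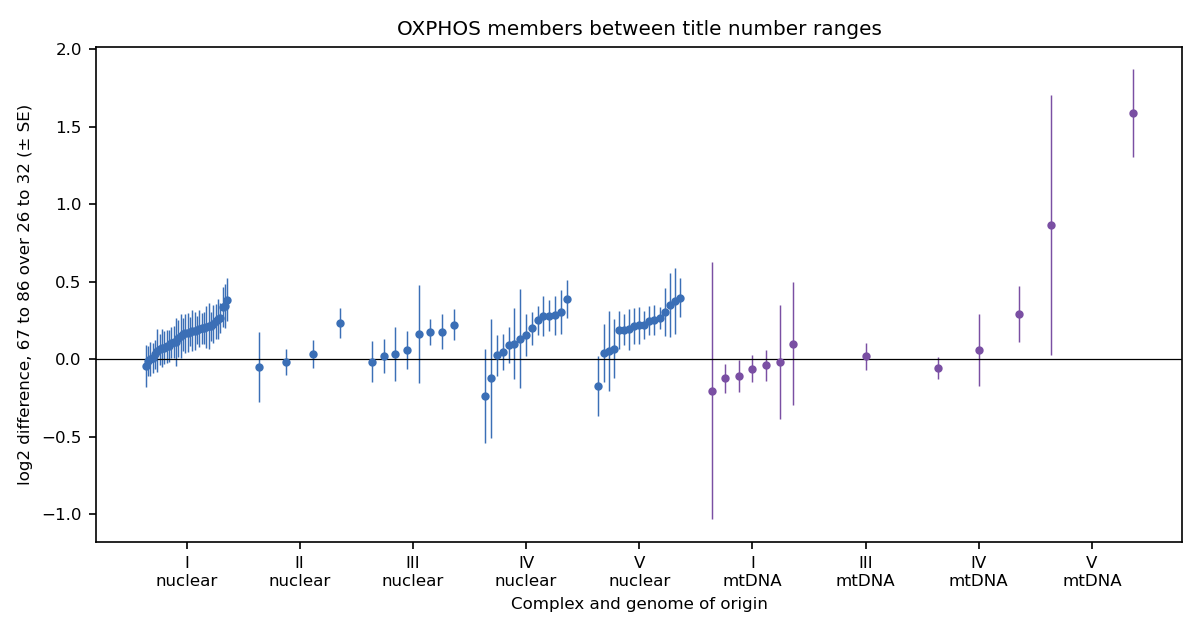
log2 difference of each tested member between libraries with title numbers 67 to 86 and those with 26 to 32, with bars of ± 1 SE, by complex and genome of origin. Nuclear members lie mostly above 0, and mt-Atp8 is farthest from 0 at 1.59.

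What the members share beside their function was looked for in their promoters. Promoters of 69 nuclear members were found in RefSeq on GRCm38.p6, 300 bases each around the start of the gene. The core of NRF1 (GCGCANGCG), a factor known to drive genes of the respiratory chain, was present on either strand in 20 of them (29.0%), against 9.63% of 17492 genes. ERR (TCAAGGTCA) was present in 2.90% against 0.377%, YY1 (ATGGCGGC) in 8.70% against 3.50% and GABP (CCGGAAGT) in 7.25% against 5.69%. Promoters are shown for Cox6a1, the highest nuclear member of complex IV, and for Sdhd and Atp5g3, the members that hold both NRF1 and ERR, with the motifs in capitals.
Cox6a1 (chr5:115348909-115349208, -): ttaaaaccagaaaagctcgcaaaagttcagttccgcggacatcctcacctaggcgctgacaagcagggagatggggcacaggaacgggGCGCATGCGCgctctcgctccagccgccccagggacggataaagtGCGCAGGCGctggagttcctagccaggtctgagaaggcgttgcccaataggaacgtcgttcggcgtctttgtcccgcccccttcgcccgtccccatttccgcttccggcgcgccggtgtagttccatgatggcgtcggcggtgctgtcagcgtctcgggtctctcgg
Sdhd (chr9:50603800-50604099, -): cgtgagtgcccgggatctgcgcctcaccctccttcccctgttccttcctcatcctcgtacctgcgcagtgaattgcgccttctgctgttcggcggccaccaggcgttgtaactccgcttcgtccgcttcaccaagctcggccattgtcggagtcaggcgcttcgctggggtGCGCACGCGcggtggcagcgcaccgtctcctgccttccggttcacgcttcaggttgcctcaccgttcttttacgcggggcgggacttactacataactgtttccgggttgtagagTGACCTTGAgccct
Atp5g3 (chr2:73911277-73911576, -): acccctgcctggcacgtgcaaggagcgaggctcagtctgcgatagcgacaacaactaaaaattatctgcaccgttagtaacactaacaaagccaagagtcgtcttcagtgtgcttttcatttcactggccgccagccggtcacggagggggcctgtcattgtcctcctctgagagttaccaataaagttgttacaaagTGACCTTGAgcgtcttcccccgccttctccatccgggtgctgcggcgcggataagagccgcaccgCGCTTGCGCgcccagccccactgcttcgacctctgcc
A match is a description of these letters and not a site of binding. All 3 genes differed between genotypes by less than their SE, with log2 fold changes of 0.01, 0.07 and 0.05.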

How the data were processed

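The 8 polyA-selected libraries were made from sorted MSPCs, 4 per genotype. The authors aligned trimmed reads to GRCm38 with HISAT2 and counted them per gene with HTSeq, and they deposited the raw counts, without normalization. The 31047344 to 38216877 counts of a library set the precision of low members, and the floor of 3 counts covers counting error only. The intervals of fold changes come from the fit and include the spread between libraries. Of 52636 identifiers 52489 matched GENCODE M21, which is not the release the methods name. Low values of the table favor odd numbers, and nothing was inferred from single counts. The main test, on the 14598 genes that no library lacked, was that of edgeR 4.0.16 (quasi-likelihood, TMM, no covariate, Benjamini-Hochberg at 0.05), checked on simulated data. Between genotypes it called 1 of 200 genes simulated with a log2 change of 0.5, 105 of 200 with 1 and 171 of 200 with 2. A lack of calls is therefore weak evidence against changes as small as 0.5. CPM use TMM-scaled library sizes. Single members were tested with an exact permutation test (two-sided, log2 CPM with a prior count of 2, 70 assignments). Copies of transcripts were searched with BLAST 2.17.0 (at least 69 bases at 98% identity). Alternatives were DESeq2 1.42.0, limma 3.58.1, other scalings and filters, the title number range as a term, a replicate block and each library left out.

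Members and lists were chosen with earlier results of these data known. Values in every library were given for mitochondrially encoded members, the highest and the smallest-p nuclear member of each complex, members without overlap between genotypes and paralog groups. Sdhb, Ndufaf4, Lrpprc, Sdhaf1, Kit, Ibsp, Sp7, Bglap, Rgs5 and the single MSPC markers were named after their values were seen.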

Additional observations from a re-analysis of the deposited data

Results flagged for a closer look

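In 14 of 192 groups of 4 libraries examined, the sample at one end stood farther from the rest than Dixon's limit, where chance flags about 1 in 20, or 9.6. As a share of the group's range on the log2 scale, the gap was 0.91 for mt-Nd4, 0.884 for Ndufa2, 0.945 for Ndufa3, 0.891 for Ndufab1, 0.85 for Ndufb9, 0.843 for Uqcr11, 0.854 for Cox6a1, 0.915 for mt-Atp6 and 0.887 for the summed nuclear members in cKO. In CTR it was 0.855 for Ndufb2, 0.838 for Ndufs1, 0.874 for mt-Cytb, 0.843 for Cox7a2l and 0.953 for Atp5j. The library was cKO1 for mt-Nd4, with 27.6 CPM against 264 to 329 CPM, and cKO2 for mt-Atp6 and for the summed nuclear members.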

How the results depend on the processing

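The count of 0 members called between genotypes held under all 20 alternatives, with 0 to 4 members at an unadjusted p under 0.05. The median of nuclear members stayed between -0.04 and 0.08 and that of mitochondrially encoded members between -0.07 and 0.04 on the log2 scale. Without members that have a near-identical annotated copy over most of the transcript, an alternative chosen after seeing the data, the second was -0.03. Over all genes, the count called between genotypes was 0 by edgeR and 1 with filterByExpr, 1 without a filter, 23 with DESeq2's Wald test, 22 with its likelihood ratio test and 47 with the title number range added to that test, and 0 of these were members. The number of members called between title number ranges rose from 0 to 2 with DESeq2's Wald test, which called 380 of all 14598 genes. The cause was not tested.

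With a replicate block, 0 genes and 0 members were called, with 3 members at an unadjusted p under 0.05, and the medians were 0.00 and -0.03. CTR and cKO libraries with the same replicate number, 1 to 4, correlated at 0.131, 0.176, 0.084 and 0.057 in their deviations from the group means. The least value set for pairs was 0.1, which replicates 1 and 2 exceeded and replicates 3 and 4 did not. The main test did not treat them as pairs. Of 8 libraries, 7 correlated best with the library of their own replicate number. Their title numbers were 78 and 86, 32 and 31, 71 and 67, and 27 and 26. Whether the replicate number marks paired mice was not tested.

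Of 35 named members tested, 17 kept the sign of their log2 fold change under all alternatives and 18 changed it under some, none of them called. With filterByExpr, Cox8a was -0.0014. Leaving out single libraries gave values from -0.075 to 0.041 for Atp5b, -0.036 to 0.23 for Atp5g1, -0.14 to 0.040 for Atp5g2, -0.014 to 0.12 for Atp5g3, -0.0092 to 0.20 for Cox4i1, -0.25 to 0.17 for Cox4i2, -0.046 to 0.10 for Cox6a1, -0.014 to 0.18 for Cox6b1, -0.060 to 0.098 for Cox7a2, -0.021 to 0.097 for Cox7a2l, -0.067 to 0.086 for Cox8a, -0.68 to 0.058 for mt-Atp6, -0.44 to 0.14 for mt-Atp8, -0.20 to 0.044 for mt-Co3, -0.040 to 0.042 for mt-Cytb, -0.21 to 0.16 for mt-Nd3, -0.070 to 0.40 for mt-Nd4l and -0.100 to 0.020 for mt-Nd6. Other alternatives moved mt-Atp6 farther, to -1.65 with limma-voom and -0.83 with the replicate block.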
